A study of Homo sapiens with 9 samples.

Results

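The respiratory chain is the set of protein complexes in the inner mitochondrial membrane that passes electrons from nutrients to oxygen and uses the released energy to make ATP. Complex I (NADH dehydrogenase) and complex II (succinate dehydrogenase) feed electrons into the chain, complex III (cytochrome bc1) and complex IV (cytochrome c oxidase) pass them on to oxygen, and complex V is the ATP synthase. Mitochondrial DNA encodes only a few of the subunits, and the others are encoded in the nucleus, translated in the cytosol and imported. Members were all probe sets with a single gene symbol that starts with NDUFA, NDUFB, NDUFC, NDUFS or NDUFV (without the NDUFAF assembly factors), UQCR, COX4 to COX8 or ATP5, or that is SDHA, SDHB, SDHC or SDHD. The rule found 157 of 54613 probe sets, from 82 genes, and used no measured value. It took in 33 genes of complex I, 3 of complex II, 6 of complex III, 17 of complex IV and 17 of complex V. A further 6 genes encode no subunit: ATP5IF1, which is an inhibitor of the ATP synthase, and 2 pseudogenes and 3 noncoding RNAs that carry a subunit's name. SDHB, NDUFS5, NDUFS8, NDUFC2, UQCRFS1 and UQCRH were among the subunits with no probe set of a single symbol, and were not analysed here. The rule left out 15 probe sets that carry a member symbol beside another symbol.

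RNA of 3 untreated human breast cancer cell lines was hybridized to U133 Plus 2.0 arrays (Affymetrix), 3 technical replicates to a line. The MDA-MB-231/GFP/Neo line is 1 ER negative clone resistant to G418, and ZR-75-1/GFP/puro is an ER positive line of pooled puromycin-resistant cells. B6TC is an estrogen-independent line, most of whose cells were resistant to both antibiotics, that came from a tumor in a nude mouse formed by cells recovered from mouse bone marrow after both parental lines had been placed in the same animal. All 3 lines carry GFP and were grown in McCoy's 5A medium with fetal bovine serum. The study asked how the expression of B6TC relates to that of its parental lines. The arrays of a line are technical replicates, so the p-values below measure the spread between arrays and not between cultures. RNA came from bulk cultures, in which fewer cells that express a gene and less RNA per cell cannot be told apart.

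The lines carried most markers of their labels, with 1 array apart. The mean of 7 luminal epithelial genes was 11.55 to 11.64 on the log2 scale in ZR-75-1 and 6.35 to 6.61 in MDA-MB-231. In B6TC it was 6.46, 6.39 and 7.92. The third array was higher through genes such as TFF1, a secreted luminal peptide, at 5.04, 4.98 and 9.08. ESR1, the ER gene among the 7, was read here by 1 probe set whose name ends in _x_at, a kind that can bind several transcripts. This probe set separated the lines little, at means of 7.19 in ZR-75-1, 6.64 in MDA-MB-231 and 6.30 in B6TC. The same probe set did not rise on the third B6TC array (6.46, 6.21 and 6.24). Its values alone cannot show how far ER expression differs between the ER positive and ER negative lines, and ER protein was not measured on the arrays. The mean of 6 mesenchymal genes was 11.53 to 11.54 in B6TC, 11.40 to 11.46 in MDA-MB-231 and 4.97 to 5.09 in ZR-75-1. Of 6 markers of blood, endothelium and fibroblasts, PTPRC, CD3E, CDH5 and DCN were under 6 in every line, PECAM1 was at means of 6.68 and 6.69 in B6TC and MDA-MB-231, and PDGFRB was at 6.01 in MDA-MB-231. Bacterial poly-A RNAs, which are added before labeling, were at a mean of 5.68 in MDA-MB-231, 7.54 in ZR-75-1 and 9.08 in B6TC. The 3′ probe set of ACTB exceeded the 5′ probe set by 0.32, 0.73 and 0.67 in the same order. The part of these control values in the results was not tested. The members hardly moved with the third B6TC array, which differed from the mean of the other B6TC arrays by a median of −0.0045 over the members.

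Most probe sets of the respiratory chain were above the filter level in all 3 lines. The test was limited to probe sets with a log2 value of 6 or more on 3 or more of the 9 arrays, as was the case for 113 member probe sets of 71 genes (72.0% of the members), against 38.6% of all probe sets. Of the 113, 109 were at 6 or more on all 9 arrays, and 2 passed through 1 line only. The 44 members set aside never exceeded 6.20. With each gene read by its brightest tested probe set, the median level over the member genes was 11.11 in ZR-75-1, 10.67 in MDA-MB-231 and 10.74 in B6TC. Over the members, the median SD between the 3 arrays was lowest in B6TC, at 0.032, and 0.041 in ZR-75-1 and 0.058 in MDA-MB-231.

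The genes with no tested probe set were mostly the subunit forms that are known from particular tissues. COX6A2 and COX7A1, the heart and muscle forms of complex IV subunits, had mean levels of 4.41 to 4.63 and 3.75 to 3.99 in the 3 lines. COX6B2, COX7B2 and COX8C, known as testis forms, were at 5.25 to 5.34, 3.44 to 3.53 and 2.40 to 2.69. COX4I2, the form of COX4 known from lung, was at 5.42 to 5.67. All of these lay under 6 on every array, while their common counterparts COX6A1, COX7A2, COX6B1, COX7B, COX8A and COX4I1 were tested and lay above 11 on every array at their brightest probe sets. Levels of different probe sets are not comparable, so this says only which forms passed the filter. The other genes without a tested probe set were ATP5MF and the pseudogenes and antisense RNAs ATP5MC2P1, COX6A1P1, NDUFB2-AS1 and NDUFV2-AS1.

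Many promoters of the members hold matches to motifs of factors that are known to act on respiratory genes. The window ran from 250 bases before to 50 bases after the start of each gene in RefSeq (GRCh38.p14), and both strands were searched. Of 76 subunit genes, 65 were matched to a promoter. The NRF1 motif GCGCANGCG was in 33.8% of them and in 11.0% of 15842 promoters of protein-coding genes. The ETS motif CCGGAAG, which GABPA binds, was in 27.7% and 14.2%, and the YY1 motif AAGATGGCG was in 10.8% and 2.74%. The ERR motif TCAAGGTCA was in 1.54% (1 promoter, that of SDHD) and 0.240%, and the E-box CACGTG was in 10.8% and 8.88%. None of the motifs contains another, although an ETS match may share its last letters with a YY1 match. The 250 bases before the start are printed as examples for 3 genes of complexes I and III that differed between the lines, as described below, and whose window overlaps no other gene. Capitals mark motif matches on either strand, and the minus strand of the chromosome is the strand shown.
UQCRC1 (chr3:48609647-48609896, minus strand): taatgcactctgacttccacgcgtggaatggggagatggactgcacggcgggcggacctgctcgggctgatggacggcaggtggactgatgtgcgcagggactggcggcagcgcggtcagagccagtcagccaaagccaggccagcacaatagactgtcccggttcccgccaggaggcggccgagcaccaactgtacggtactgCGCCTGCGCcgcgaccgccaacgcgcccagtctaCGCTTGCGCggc
UQCR11 (chr19:1605463-1605712, minus strand): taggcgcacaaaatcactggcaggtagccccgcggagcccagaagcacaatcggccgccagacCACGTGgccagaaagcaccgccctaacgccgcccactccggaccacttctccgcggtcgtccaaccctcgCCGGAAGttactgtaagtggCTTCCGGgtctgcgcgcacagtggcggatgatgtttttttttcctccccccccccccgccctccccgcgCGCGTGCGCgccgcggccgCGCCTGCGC
NDUFA11 (chr19:5903791-5904040, minus strand): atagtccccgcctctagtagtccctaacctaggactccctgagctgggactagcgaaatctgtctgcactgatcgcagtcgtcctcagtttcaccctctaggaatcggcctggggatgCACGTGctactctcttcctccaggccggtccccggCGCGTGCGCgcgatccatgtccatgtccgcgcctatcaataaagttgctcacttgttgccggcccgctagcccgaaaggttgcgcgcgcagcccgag
The UQCRC1 window holds 2 NRF1 matches before the start and a YY1 match after it, which is not printed. The UQCR11 window holds 2 NRF1 matches, 2 ETS matches and 1 E-box, and that of NDUFA11 holds 1 NRF1 match and 1 E-box. A match describes the letters and does not show binding. Between B6TC and ZR-75-1, 7 of the 21 tested genes with an NRF1 match were higher in B6TC and 8 lower (median difference −0.08), and of the 40 without one 7 were higher and 28 lower (median −0.29), beside 42.8% higher and 41.6% lower over all tested genes. Between the parental lines the medians with and without an NRF1 match were −0.18 and −0.23. For the ETS motif the medians of B6TC against ZR-75-1 were −0.23 with a match and −0.26 without. Between the parental lines the ETS medians were 0.14 with a match and −0.23 without. Whether the groups with and without a match differ was not tested.

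B6TC and MDA-MB-231 differed at many of the members, in both directions and by small amounts. Of the 113 probe sets, 44 were higher in B6TC and 38 lower at a limma adjusted p of 0.05 or less, and 31 did not pass. Together 72.6% of the members were called, against 65.1% of all tested probe sets (33.9% higher and 31.3% lower). The median log2 difference was 0.02, against 0.009 over all tested probe sets, and without the third MDA-MB-231 array it was −0.0017. Counted by gene, 26 of 71 were higher and 27 lower (36.6% and 38.0%), against 36.5% and 28.5% of 10751 genes, of which 65.0% were called in either direction. The largest difference of any gene in this comparison was under 2-fold, and by probe set only 1 member reached 2-fold, a second probe set of UQCRB at 1.07.

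ZR-75-1 stood higher than both other lines at more of the members than it stood lower. Of the 113 probe sets, 65 were lower and 30 higher in B6TC (57.5% and 26.5%), against 40.6% and 43.0% of all tested probe sets. MDA-MB-231 was lower than ZR-75-1 at 63 probe sets and higher at 31 (55.8% and 27.4%), against 39.9% and 43.8%. In either direction 84.1% and 83.2% of the members were called, against 83.7% of all tested probe sets in both comparisons. The median differences were −0.23 and −0.22, against 0.007 and 0.03 over all tested probe sets. The tests share the ZR-75-1 arrays. By gene, 42 of 71 were lower in B6TC and 16 higher (59.2% and 22.5%), against 41.6% and 42.8% of all tested genes. Between the parental lines 41 of the 71 genes were lower in MDA-MB-231 and 23 higher (57.7% and 32.4%), against 41.9% and 42.5%. Both comparisons called 84.4% of all tested genes in either direction, and 81.7% and 90.1% of the member genes. The mean level of the 69 tested subunit genes lay at 10.99 to 11.03 on the arrays of ZR-75-1, at 10.74 to 10.75 on those of B6TC and at 10.74 to 10.80 on those of MDA-MB-231.

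This tilt lay mainly in probe sets whose names end in _s_at or _x_at, which can bind several transcripts. Among the 61 members of this kind, 43 lay below ZR-75-1 in B6TC and 12 above it (70.5% and 19.7%), at a median difference of −0.30, against 42.1% and 41.0% of all tested probe sets of the kind. Among the other 52 members, fitted without these probe sets, 22 lay below and 18 above, at a median difference of −0.05, against 39.4% and 44.4% of all such probe sets. Between the parental lines the counts without them were 21 lower and 19 higher in MDA-MB-231 (median difference −0.04), against 39.9% and 43.7% of all such probe sets. The _s_at and _x_at members were also brighter, with a median level of 10.82 against 9.79. Whether the kind of probe set or the level goes with the tilt was not tested.

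**Figure D1:**
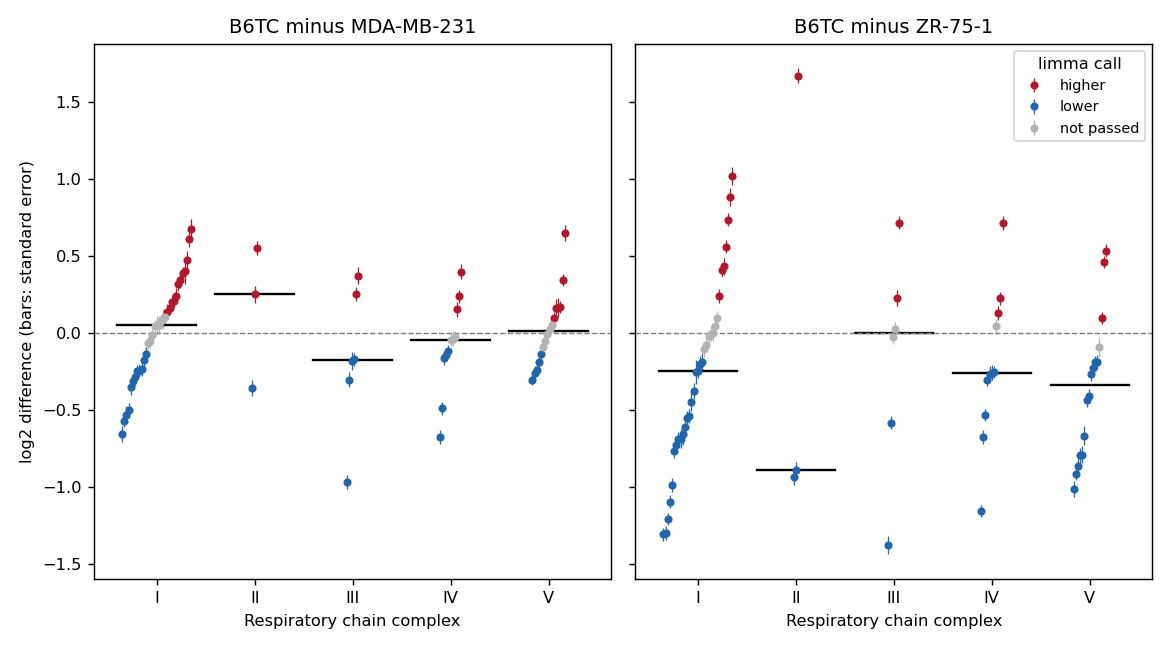
Log2 difference of each tested subunit gene, 1 probe set per gene, between B6TC and MDA-MB-231 (left) and between B6TC and ZR-75-1 (right), by complex. Bars are standard errors, black lines are medians, and colors give the limma call; differences from MDA-MB-231 stay within −1 and 1, while those from ZR-75-1 reach 1.67 for SDHD and −1.38 for UQCR10.

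Complex I takes electrons from NADH, and some of its core subunits carry the flavin and the iron-sulfur clusters. For all 5 core subunits tested (NDUFS1, NDUFS3, NDUFS7, NDUFV1 and NDUFV2) B6TC was lower than ZR-75-1, the median difference being −0.54. Of the 28 accessory subunits, 14 were lower in B6TC against ZR-75-1, 7 higher and 7 did not pass. Over all tested genes 41.6% were lower and 42.8% higher. The 50% lower among the accessory subunits was near that share, while the 25% higher was below it. Whether the accessory subunits differ from all tested genes was not tested. Against MDA-MB-231, 12 of the 33 genes were higher in B6TC, 12 lower and 9 did not pass, or 36.4% each way beside 36.5% higher and 28.5% lower over all tested genes. The probe sets of NDUFS1 disagreed, since its brightest gave −0.55 against ZR-75-1 and another gave 0.62.

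NDUFV2 encodes a core subunit with an iron-sulfur cluster, beside the NADH-binding site. Its log2 levels were 10.65, 10.72 and 10.65 in B6TC, 10.13, 9.94 and 9.92 in MDA-MB-231 and 11.34, 11.41 and 11.33 in ZR-75-1. The 3 lines did not overlap, with B6TC between the others. B6TC exceeded MDA-MB-231 by 0.68 (SE 0.06, limma adjusted p = 6.42e-06) and lay under ZR-75-1, at a difference of −0.69 (limma adjusted p = 1.48e-06). NDUFC1, a small accessory membrane subunit, lay in the same order, with the B6TC mean of 11.20 between 10.59 (MDA-MB-231) and 11.58 (ZR-75-1). Its second, dim probe set had B6TC above ZR-75-1, so its place against ZR-75-1 rests on the probe set.

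Several accessory subunits were high in ZR-75-1 alone. NDUFB9, a subunit of the membrane arm, was at 10.78, 10.75 and 10.79 in B6TC, 10.71, 10.69 and 10.62 in MDA-MB-231 and 12.09, 12.09 and 12.07 in ZR-75-1. The first 2 lines lay close together, at a difference of 0.10 (limma adjusted p = 0.0581), and B6TC was 2.48-fold lower than ZR-75-1 (difference −1.31, standard error of 0.04, limma adjusted p = 5.85e-10). NDUFA6, a small protein of the LYR family, was at 10.26, 10.27 and 10.28 in B6TC, 10.06, 10.10 and 10.03 in MDA-MB-231 and 11.38, 11.36 and 11.37 in ZR-75-1. The lines did not overlap, and B6TC differed from ZR-75-1 by −1.10 (limma adjusted p = 1.39e-09). A second, dimmer NDUFA6 probe set gave −0.53 from ZR-75-1 (limma adjusted p = 4.76e-06). There the B6TC and MDA-MB-231 arrays overlapped (limma adjusted p = 0.815). NDUFV3 differed from ZR-75-1 by −1.30 (standard error of 0.05, limma adjusted p = 1.51e-09) at its brighter probe set, which read 9.06, 9.03 and 9.06 in B6TC, 8.89, 8.75 and 8.79 in MDA-MB-231 and 10.34, 10.38 and 10.33 in ZR-75-1. Its dimmer probe set went the other way, at 0.55.

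NDUFB2, an accessory subunit of the membrane arm, was lowest in B6TC. It read 9.95, 9.96 and 9.98 in B6TC, 10.51, 10.55 and 10.53 in MDA-MB-231 and 11.19, 11.18 and 11.15 in ZR-75-1. The lines did not overlap. B6TC was lower than MDA-MB-231 at a difference of −0.57 (standard error of 0.04, limma adjusted p = 1.28e-06), and differed from ZR-75-1 by −1.21 (limma adjusted p = 5.86e-10). A second probe set gave −0.26 and −0.93, both called. NDUFA13, also known as GRIM-19, was at 11.10, 11.12 and 11.10 in B6TC, 11.66, 11.82 and 11.81 in MDA-MB-231 and 11.32, 11.35 and 11.26 in ZR-75-1. B6TC was again lowest, by a difference of −0.66 from MDA-MB-231 (limma adjusted p = 3.34e-06) and −0.20 from ZR-75-1 (limma adjusted p = 0.00477).

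Other complex I subunits were lowest in ZR-75-1. NDUFS4, an accessory subunit needed for the stability of the complex, was at 9.42, 9.44 and 9.33 in B6TC, 10.02, 9.85 and 9.91 in MDA-MB-231 and 8.43, 8.38 and 8.33 in ZR-75-1. B6TC lay between the parental lines without overlap, 1.02 above ZR-75-1 (standard error of 0.06, limma adjusted p = 3.54e-08) and at −0.53 from MDA-MB-231 (limma adjusted p = 2.11e-05). NDUFA11, whose promoter is shown above, read 10.73, 10.73 and 10.72 in B6TC, 11.02, 10.95 and 10.94 in MDA-MB-231 and 10.03, 9.96 and 9.97 in ZR-75-1. It too had B6TC between the others, 0.74 above ZR-75-1 (limma adjusted p = 5.85e-08), and a second probe set gave 0.86. NDUFB8 was at 10.72, 10.71 and 10.70 in B6TC, 10.36, 10.24 and 10.13 in MDA-MB-231 and 9.78, 9.87 and 9.83 in ZR-75-1, so that B6TC was highest. Its difference from ZR-75-1 was 0.89 (limma adjusted p = 1.59e-07), and the difference of 0.47 from MDA-MB-231 turned to −0.20 at a second probe set. NDUFB6 in B6TC exceeded MDA-MB-231 by 0.39 and ZR-75-1 by 0.56 (limma adjusted p = 2.66e-05 and 4.67e-07).

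For NDUFA2, B6TC lay with ZR-75-1. It was at 10.74, 10.71 and 10.76 in B6TC, 11.30, 11.15 and 11.27 in MDA-MB-231 and 10.75, 10.78 and 10.70 in ZR-75-1. The B6TC and ZR-75-1 arrays overlapped (limma adjusted p = 0.942), and both lines lay under MDA-MB-231, B6TC by a difference of −0.50 (standard error of 0.05, limma adjusted p = 1.42e-05).

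Complex II, which oxidizes succinate and is also an enzyme of the tricarboxylic acid cycle, showed its subunits in opposite orders. SDHD, a membrane anchor, was at 11.73, 11.73 and 11.69 in B6TC, 11.22, 11.14 and 11.13 in MDA-MB-231 and 9.99, 10.04 and 10.10 in ZR-75-1. It was highest in B6TC without overlap, 0.55 above MDA-MB-231 (standard error of 0.05, limma adjusted p = 4.90e-06) and 1.67 above ZR-75-1 (limma adjusted p = 2.14e-10), or 3.19-fold. SDHA, the catalytic flavoprotein, was at 9.53, 9.50 and 9.53 in B6TC, 9.85, 9.89 and 9.88 in MDA-MB-231 and 10.50, 10.41 and 10.31 in ZR-75-1. It was lowest in B6TC, at −0.36 from MDA-MB-231 (limma adjusted p = 0.000199) and −0.89 from ZR-75-1 (limma adjusted p = 6.24e-08). SDHC, the other membrane anchor, was at 9.38, 9.44 and 9.41 in B6TC, 9.27, 9.12 and 9.09 in MDA-MB-231 and 10.36, 10.35 and 10.33 in ZR-75-1. It differed from ZR-75-1 by −0.94 (standard error of 0.05, limma adjusted p = 4.34e-08), and all 5 of its tested probe sets had B6TC under ZR-75-1. Against MDA-MB-231 only the brightest of the 5 passed, at 0.25. SDHA is read by 1 probe set, of the _x_at kind.

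**Figure D2:**
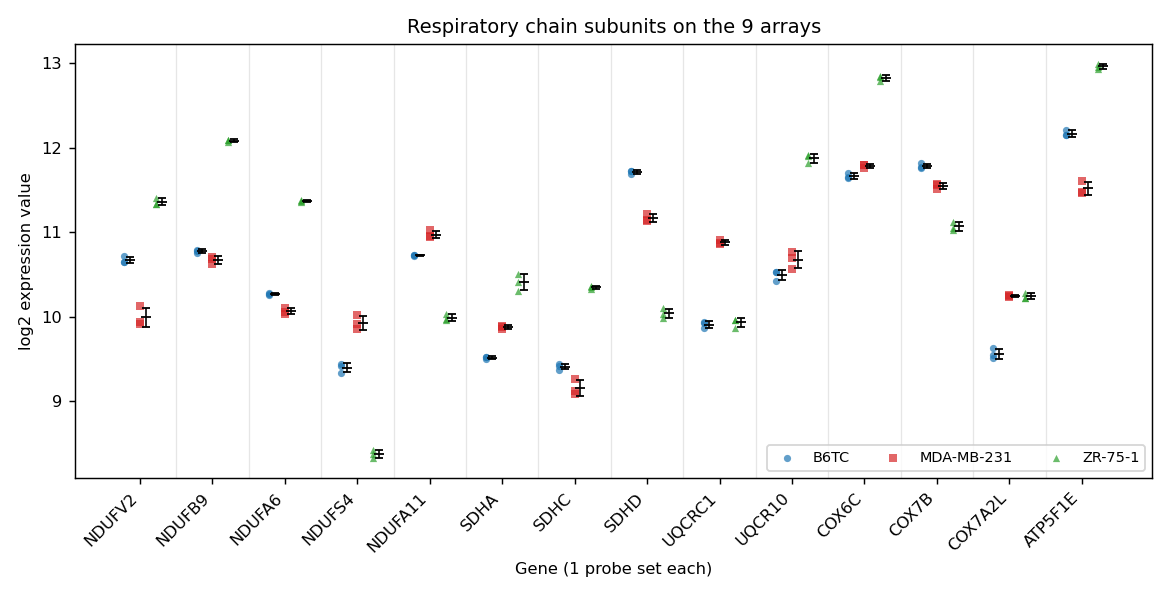
Log2 expression value of 14 subunit genes on each of the 9 arrays, 1 probe set per gene, with the mean and SD of each line in black beside the points (3 arrays per line). SDHD and COX7B are highest in B6TC, SDHA and COX7A2L lowest, UQCRC1 is high in MDA-MB-231 alone, and NDUFB9, NDUFA6, UQCR10 and COX6C are high in ZR-75-1 alone.

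Complex III had as many genes on one side of ZR-75-1 as on the other. Of its 6 genes, 2 were higher in B6TC against ZR-75-1, 2 lower and 2 did not pass (33.3% each way, against 42.8% and 41.6% of all tested genes). Against MDA-MB-231 2 were higher and 4 lower (33.3% and 66.7%, against 36.5% and 28.5%). UQCRC1, a core protein of the matrix side, gave the largest difference of any member gene between B6TC and MDA-MB-231. It was at 9.93, 9.86 and 9.93 in B6TC, 10.88, 10.86 and 10.91 in MDA-MB-231 and 9.96, 9.96 and 9.87 in ZR-75-1. B6TC lay with ZR-75-1 (difference −0.02, limma adjusted p = 0.631) and 1.96-fold under MDA-MB-231 (difference −0.97, standard error of 0.05, limma adjusted p = 1.55e-07). UQCRC2, its partner core protein, had another order, with B6TC at 10.12, 10.12 and 10.15, MDA-MB-231 at 10.34, 10.30 and 10.26 and ZR-75-1 at 10.70, 10.75 and 10.68. B6TC was thus lowest for UQCRC2, and a second probe set had the same order.

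Of the small subunits of complex III, UQCR10 and UQCR11 differed from ZR-75-1 in opposite directions. UQCR10 was at 10.53, 10.42 and 10.53 in B6TC, 10.77, 10.69 and 10.57 in MDA-MB-231 and 11.90, 11.91 and 11.81 in ZR-75-1. It gave the lowest difference of the member genes from ZR-75-1, −1.38 (standard error of 0.06, limma adjusted p = 5.42e-09), and a second probe set gave −1.57. Against MDA-MB-231 its probe sets were called in opposite directions, at −0.18 and 0.23. UQCR11, with its promoter above, was at 10.51, 10.52 and 10.49 in B6TC, 10.24, 10.31 and 10.22 in MDA-MB-231 and 9.78, 9.83 and 9.76 in ZR-75-1. It was 0.72 above ZR-75-1 (limma adjusted p = 7.45e-08), whereas the difference of 0.25 from MDA-MB-231 was −0.23 at its dimmer probe set. UQCRB, a small subunit near the ubiquinone site, had B6TC above both parental lines at all 3 of its tested probe sets, by 0.35 to 1.07 against MDA-MB-231 and 0.23 to 0.92 against ZR-75-1. UQCRQ, another small subunit, was at 11.82, 11.81 and 11.78 in B6TC, and its difference of 0.03 from ZR-75-1 did not pass (limma adjusted p = 0.62), while that from MDA-MB-231 was −0.30 (limma adjusted p = 0.00026).

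Complex IV, whose catalytic subunits are encoded by mitochondrial DNA, had 11 tested nuclear genes. B6TC lay under ZR-75-1 at 7 of these and above it at 3, against 41.6% and 42.8% of all tested genes, and under MDA-MB-231 at 5 and above it at 3, against 28.5% and 36.5%. COX6C, a membrane subunit, was at 11.65, 11.64 and 11.71 in B6TC, 11.80, 11.76 and 11.79 in MDA-MB-231 and 12.79, 12.84 and 12.85 in ZR-75-1. It was high in ZR-75-1, with a difference of −1.16 for B6TC (standard error of 0.04, limma adjusted p = 1.34e-09) and of −0.12 between B6TC and MDA-MB-231 (limma adjusted p = 0.031). COX7B was at 11.78, 11.81 and 11.76 in B6TC, 11.55, 11.51 and 11.57 in MDA-MB-231 and 11.12, 11.03 and 11.05 in ZR-75-1. Here B6TC was highest, by 0.24 and 0.71 (limma adjusted p = 0.000956 and 9.12e-08). A second COX7B probe set, at means of 6.49 and 6.06 in B6TC and MDA-MB-231, was near background in ZR-75-1 at 3.83, 3.48 and 3.84, and gives no size for the difference.

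COX7A2L, which is known to help join complexes III and IV into supercomplexes, differed from both parental lines alike. It was at 9.54, 9.52 and 9.63 in B6TC, 10.24, 10.25 and 10.23 in MDA-MB-231 and 10.22, 10.28 and 10.23 in ZR-75-1. The parental arrays overlapped (limma adjusted p = 0.98), and B6TC was 1.60-fold under each, at −0.68 from both (standard error of 0.05, limma adjusted p = 1.06e-06 and 1.58e-07). Of the isoform pairs, COX4I1 was at 12.40, 12.38 and 12.41 in B6TC and differed by −0.30 from ZR-75-1 (limma adjusted p = 3.43e-05). COX5A was 0.15 above MDA-MB-231 in B6TC and 0.04 from ZR-75-1, where it did not pass. COX5B was, at its brightest probe set, 0.40 above MDA-MB-231 and at −0.26 from ZR-75-1. Its other tested probe sets gave 0.02 to 0.20 against MDA-MB-231, where only the largest passed. Against ZR-75-1 they gave −0.32 to −0.26, all called. COX6A1 and COX7C exceeded ZR-75-1 in B6TC by 0.13 and 0.22, and for COX8A and COX6B1 B6TC was under both parental lines.

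COXFA4, formerly NDUFA4 and now counted with complex IV, falls outside the symbol rule. It was at 10.38, 10.53 and 10.35 in B6TC, 10.96, 10.85 and 10.74 in MDA-MB-231 and 11.70, 11.66 and 11.80 in ZR-75-1. B6TC was lowest, at −0.43 and −1.30 (limma adjusted p = 0.000474 and 3.44e-08). Its relative COXFA4L2 was near 6 in all lines and passed no comparison. COXFA4L3, chosen after its values were seen, had a mean of 3.97 in ZR-75-1, 7.12 in MDA-MB-231 and 6.92 in B6TC.

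Complex V, the ATP synthase, had 12 of 16 tested genes lower in B6TC against ZR-75-1, 3 higher and 1 that did not pass (75% lower and 18.8% higher, against 41.6% and 42.8% of all tested genes). Against MDA-MB-231 the counts were 6 higher, 5 lower and 5 that did not pass, and the shares of 37.5% and 31.2% were near the 36.5% and 28.5% of all tested genes. In the catalytic head, ATP5F1A (α) was 0.10 and ATP5F1B (β) −0.19 from ZR-75-1. ATP5F1E, the ε subunit of the central stalk, was at 12.14, 12.21 and 12.14 in B6TC, 11.60, 11.48 and 11.47 in MDA-MB-231 and 12.94, 12.99 and 12.96 in ZR-75-1. The lines did not overlap, and B6TC lay between, 0.65 above MDA-MB-231 (standard error of 0.05, limma adjusted p = 2.56e-06) and at −0.80 from ZR-75-1 (limma adjusted p = 1.00e-07). ATP5F1D, the δ subunit of the same stalk, was at a mean of 8.98 ± 0.013 (SD, n = 3) in B6TC and at 9.29, 9.30 and 9.28 in MDA-MB-231 and 9.91, 9.91 and 9.89 in ZR-75-1. B6TC was lowest here, at −0.92 from ZR-75-1 and −0.30 from MDA-MB-231 (limma adjusted p = 3.54e-09 and 6.19e-05).

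ATP5MC1, ATP5MC2 and ATP5MC3 encode the same mature c subunit, of which the membrane ring is built. ATP5MC1 read 9.81, 9.77 and 9.83 in B6TC, 9.88, 9.84 and 9.84 in MDA-MB-231 and 10.03, 10.10 and 10.08 in ZR-75-1. At their brightest probe sets all 3 genes had B6TC under ZR-75-1, at differences of −0.27, −0.79 and −0.86 in that order (limma adjusted p = 0.000136, 2.18e-07 and 3.61e-08). A dim probe set of ATP5MC3 went the other way, at 0.59. ATP5ME, a small membrane subunit, was at 10.37, 10.30 and 10.32 in B6TC, 10.49, 10.37 and 10.41 in MDA-MB-231 and 11.38, 11.29 and 11.37 in ZR-75-1, and was thus high in ZR-75-1 alone. ATP5PF, of the peripheral stalk, went the other way, with B6TC at 11.63, 11.67 and 11.64 and MDA-MB-231 at 11.62, 11.55 and 11.61 against 11.08, 11.11 and 11.15 in ZR-75-1 (difference of B6TC from ZR-75-1 0.54, limma adjusted p = 6.90e-07). ATP5IF1, the inhibitor that binds the ATP synthase, was at 9.82, 9.87 and 9.78 in B6TC, 9.29, 9.09 and 9.07 in MDA-MB-231 and 9.90, 10.04 and 9.96 in ZR-75-1. B6TC was 0.67 above MDA-MB-231 (standard error of 0.07, limma adjusted p = 1.31e-05), and its difference of −0.14 from ZR-75-1 did not pass (limma adjusted p = 0.071), while another ATP5IF1 probe set gave −0.88.

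At some of the members B6TC stood outside the range of its parental lines. It was above both at 19 of 113 probe sets (16.8%, against 18.6% of all tested probe sets) and below both at 24 (21.2%, against 15.4%). By gene, B6TC was above both lines at 9 of 71 and below both at 18 (12.7% and 25.4%), against 20.1% and 14.6% of all tested genes. The genes above both were ATP5F1A, ATP5MK, COX7B, NDUFB5, NDUFB6, NDUFB8, SDHD, UQCR11 and UQCRB. The genes below both included COX7A2L, NDUFB2, SDHA, NDUFS3, ATP5F1D, ATP5MC2 and UQCRC2. At 16 genes B6TC lay between the lines and differed from both, and at 15 it differed from ZR-75-1 and not from MDA-MB-231. At 9 genes B6TC did not differ from ZR-75-1 and both differed from MDA-MB-231. At COX5A B6TC differed from MDA-MB-231 while the parental lines did not pass. The shares of these last placements over all tested genes were not computed, so the counts describe the members only. B6TC lay nearer to MDA-MB-231 than to ZR-75-1 at 79 probe sets (69.9%), against 72.3% of all tested probe sets. Without the third B6TC array, 15 probe sets were above both lines and 24 below both.

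Probe sets of a gene did not always agree in direction. Several probe sets were tested for 27 genes, and calls of opposite sign were found within 8 of these for B6TC against MDA-MB-231, 6 for B6TC against ZR-75-1 and 2 for the parental lines. In most of them a dim probe set opposed a bright one. How often calls of opposite sign occur among all genes with several tested probe sets was not computed. ATP5MG, a small subunit of complex V, had 3 bright probe sets at −0.19 to −0.26 and another at 0.66 against MDA-MB-231.

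Some of the larger differences from ZR-75-1 were shared by the genes next to the member on its chromosome. The 10 nearest tested genes on each side were taken from the order of genes in RefSeq. Over all tested genes 42.8% were higher and 41.6% lower in B6TC against ZR-75-1. At SDHD on chromosome 11, whose nearest tested neighbors are TIMM8B and IL18, 17 of 20 neighbors were higher in B6TC and none lower, with a median of 1.43 beside 1.67 for SDHD. At NDUFS4 on chromosome 5 the median was 1.13, with 15 higher and 4 lower. At COX7B on chromosome X it was 1.10, with 18 higher and 2 lower. At ATP5F1E on chromosome 20, 18 of 20 neighbors were lower, with a median of −0.85. The neighbors of UQCR10 on chromosome 22 had a median of −0.69, with 15 lower and 2 higher. Those of NDUFB9 on chromosome 8 had a median of −0.64, with 12 lower and 6 higher. For other members the neighbors did not move alike: the medians were 0.08 at NDUFA6, 0.07 at NDUFB2 and −0.005 at SDHC. Across the 71 genes, which are not independent replicates, the correlation of a member's difference with the median of its neighbors was r = 0.67 against ZR-75-1 and r = 0.37 against MDA-MB-231. The same correlation for genes outside the members was not computed. Gene copy number was not measured.

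**Figure D3:**
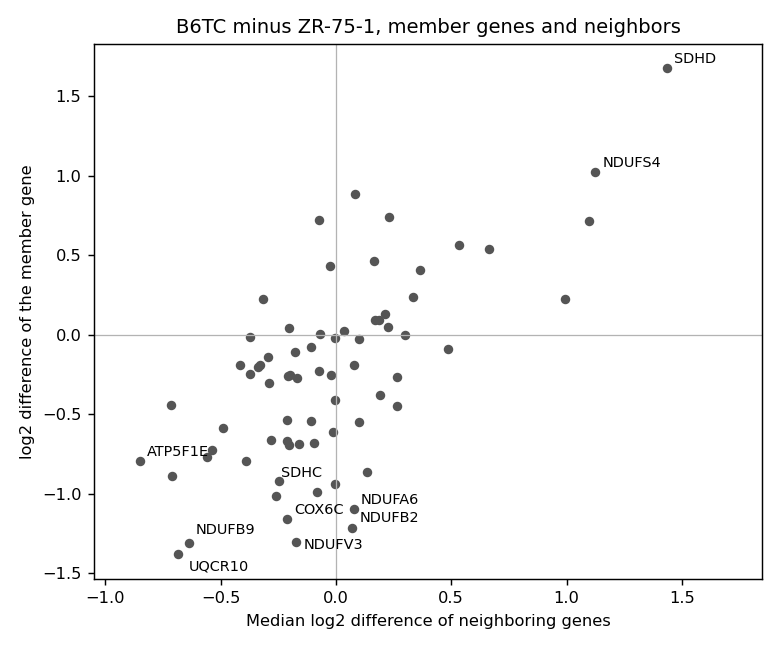
Log2 difference between B6TC and ZR-75-1 of each of the 71 tested member genes (y axis) against the median difference of up to 20 neighboring tested genes (x axis). SDHD and NDUFS4 lie at the upper right with their neighbors, ATP5F1E, NDUFB9 and UQCR10 at the lower left, and NDUFA6, NDUFB2 and SDHC are low with neighbors near 0.

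The assembly factors build the complexes but are not part of them. Of 47 tested genes, 25 were higher and 14 lower in B6TC against ZR-75-1 (53.2% and 29.8%, beside 42.8% and 41.6% of all tested genes), with a median difference of 0.19. Against MDA-MB-231, 24 were higher and 11 lower (51.1% and 23.4%, beside 36.5% and 28.5%), and the median difference was 0.16. The difference between assembly factors and subunits was not tested. SDHAF3, an assembly factor for the iron-sulfur subunit of complex II, was at 7.93, 8.13 and 7.94 in B6TC, 7.98, 7.67 and 7.67 in MDA-MB-231 and 2.64, 2.39 and 2.70 in ZR-75-1. It passed the filter through the first 2 lines only and was near background in ZR-75-1, so no size is given for the difference. ATPAF1, an assembly factor of the ATP synthase, was higher in ZR-75-1, at a difference of −1.59 for B6TC (limma adjusted p = 8.85e-09). SDHAF4 was at 6.67, 6.74 and 6.53 in B6TC, and under the filter level in MDA-MB-231, at 4.71, 5.54 and 5.01. Among genes outside the symbol rule, CYC1, the cytochrome c1 subunit of complex III, was at −0.29 from ZR-75-1 in B6TC, and CYCS, cytochrome c, passed no comparison. COQ10A, a ubiquinone-binding protein, was 1.49 above ZR-75-1 in B6TC, and ETFB, which passes electrons from fatty acid oxidation, was lower, at −0.96.

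Of 11 tested regulators of mitochondrial biogenesis, 8 were higher and 1 lower in B6TC against ZR-75-1 (72.7% and 9.09%, beside 42.8% and 41.6% of all tested genes). The 5 higher and 4 lower against MDA-MB-231 (45.5% and 36.4%) stood beside 36.5% and 28.5%. TFAM, which packages and transcribes mitochondrial DNA, had a mean of 9.23 in ZR-75-1, 9.76 in MDA-MB-231 and 10.26 in B6TC, with B6TC 0.50 above MDA-MB-231 and 1.03 above ZR-75-1 (limma adjusted p = 1.79e-05 and 1.71e-08). TFB2M, a mitochondrial transcription factor, was 1.31 above ZR-75-1, and MYC was 0.80 and 1.28 above MDA-MB-231 and ZR-75-1. NRF1 was 0.59 above ZR-75-1 and at −0.20 from MDA-MB-231, ESRRA was 0.14 above ZR-75-1 and at −0.54 from MDA-MB-231, and GABPA passed no comparison. The coactivators PPARGC1A and PPARGC1B were under 6 on every array and were not tested.

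Other mitochondrial and metabolic lists are given for comparison with the 41.6% lower and 42.8% higher of all tested genes. Of 76 mitochondrial ribosomal protein genes, 27 were higher and 35 lower in B6TC against ZR-75-1 (median −0.07), with MRPS21 at −2.27 and MRPS6 at 2.00. Of 15 tricarboxylic acid cycle genes, 5 were higher and 8 lower (median −0.14), and PDHB and DLAT of the pyruvate dehydrogenase complex were higher by 1.52 and 1.35. Of 51 cytosolic ribosomal protein genes, 23 were higher and 12 lower (median 0.06), with RPS4X at 0.72. Of 18 glycolysis genes, 10 were higher and 7 lower (median 0.16). LDHB, a lactate dehydrogenase subunit, had a mean of 5.59 in ZR-75-1, 12.67 in MDA-MB-231 and 12.73 in B6TC. Against MDA-MB-231, 3 of the 18 were higher and 9 lower (16.7% and 50%, beside 36.5% and 28.5% of all tested genes), with PKM, a pyruvate kinase, at −1.46 (limma adjusted p = 1.39e-08). The lists were not tested against each other.

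**Figure D4:**
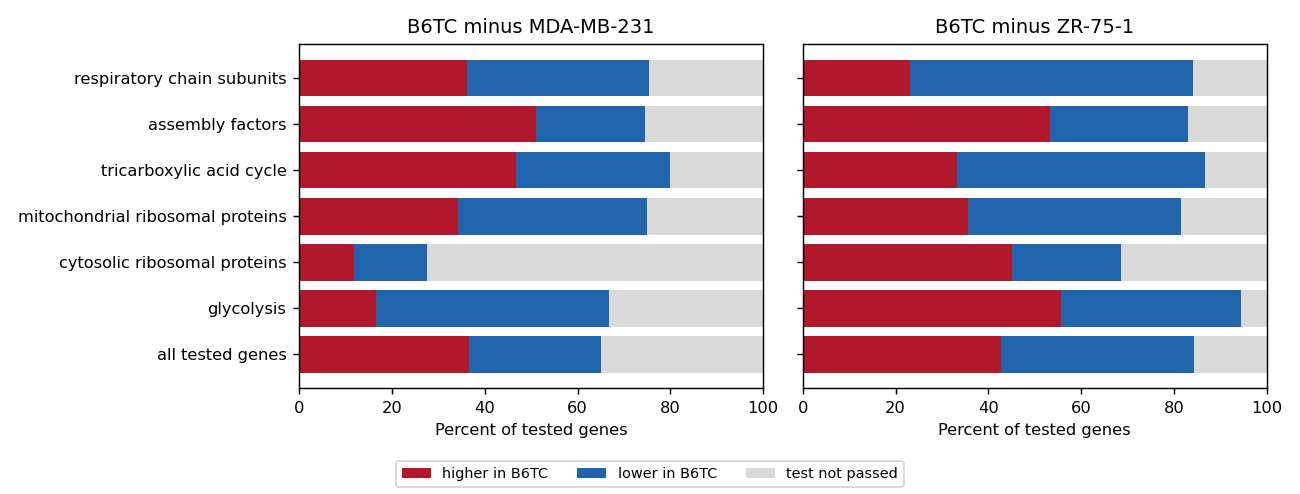
Percent of the tested genes of each list that were higher in B6TC (red), lower in B6TC (blue) or did not pass limma at an adjusted p of 0.05 (gray), against MDA-MB-231 (left) and ZR-75-1 (right). Against ZR-75-1, 60.9% of the 69 subunit genes were lower in B6TC, beside 29.8% of the 47 assembly factors and 41.6% of all tested genes.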

How the data were processed

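The authors deposited log2 expression values for 54675 probe sets on 9 arrays. The submitters' processing notes name Affymetrix Expression Console and RMA, the methods name GC-RMA, and neither step could be repeated from the values. Labels name Trizol and RNeasy, and the methods another RNA kit. Labeling and scan batches are not given in the sources used here. Probe sets were named from the platform annotation with symbols updated by gene identifier (GRCh38.p14), and 62 controls were left out. Of the rest, 21095 passed the filter (log2 of at least 6 on at least 3 arrays) and 33518 were set aside. All 9 arrays were fitted with limma 3.58.1 (R 4.3.3), 1 mean per line, with 6 residual and 3.68 prior degrees of freedom, and Benjamini-Hochberg adjustment over all tested probe sets within a comparison. The median SD between arrays was 0.064, and the number of arrays limits the precision. Gene-level results use the tested probe set of highest mean. The members and lists were chosen with earlier results of these data known. Genes were named for the 6 largest differences in each direction of each comparison among called probe sets without array overlap, as farthest above and below both parental lines, as SDH genes, isoform sets or some regulators, and for the 2 largest called differences of each companion list. Further members are named as examples, chosen after their values were seen. Levels of different probe sets are not comparable. Alternatives were no filter, arrays centered on their medians, robust regression, robust and trended variances, compared lines only, no _s_at or _x_at probe sets, 1 probe set per gene, a replicate block and leaving out each array. The procedure was tested on simulated data.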

Additional observations from a re-analysis of the deposited data

How the results depend on the processing

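All 772 values that the alternatives gave for the 47 named differences kept their direction and their side of the threshold. Probe sets of the _s_at and _x_at kind gave no value where that kind was left out. The 47 were chosen as the largest called differences or as farthest outside both parental lines, so that keeping the call was likely. Other differences named above were not included. The cause of the changes below was not tested, except where fewer probe sets were fitted. Without a filter the member medians against ZR-75-1 were −0.17 for B6TC and −0.15 for MDA-MB-231. With arrays centered on their medians the B6TC median was −0.33, and the median of all tested probe sets moved from 0.007 to −0.09, so that relative to all probe sets the members moved little. Without _s_at and _x_at probe sets, which left 52 members, 19 were higher and 19 lower in B6TC against MDA-MB-231, 18 higher and 22 lower against ZR-75-1 (median −0.055), 19 higher and 21 lower in MDA-MB-231 against ZR-75-1 (median −0.045), and 11 lay above and 10 below both parental lines. With 1 probe set per gene, 27 of 71 were higher in B6TC against MDA-MB-231, 16 higher and 42 lower against ZR-75-1, 41 lower in MDA-MB-231 against ZR-75-1, and 9 above both.

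Leaving out 1 array at a time gave 37 to 43 members higher and 32 to 38 lower in B6TC against MDA-MB-231 (median −0.0017 to 0.041), 27 to 30 and 64 to 67 against ZR-75-1 (median −0.23 to −0.22), 28 to 31 and 60 to 66 between the parental lines (median −0.23 to −0.20), and 15 to 17 above and 20 to 24 below both. The replicate numbers did not pair the arrays, whose same-numbered deviations correlated at −0.10 to 0.18, and with a replicate block 39 members were higher and 36 lower in B6TC against MDA-MB-231 and 29 and 65 against ZR-75-1.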
